A study of Rattus norvegicus with 5 samples.

Results

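Regulators of epithelial identity and of the mesenchymal state were examined in FRT cells, a rat thyroid epithelial line from the Fischer strain, grown either as 2D confluent monolayers or, embedded in the basement membrane extract Matrigel, as 3D follicles. The 10 genes were chosen by name, with earlier results of these data known. They were Elf3, Ehf, Grhl1, Grhl2, Ovol1 and Esrp1 on the epithelial side, and Snai1, Snai2, Zeb1 and Twist1 on the mesenchymal side. Of these, 8 were paired with at least 1 array probe through their RefSeq accession, among 15154 genes measured, and they carried 10 probes. Grhl1 and Zeb1 were not paired with a probe and are not analysed here. RNA was taken on day 5. On 4 two-color Agilent arrays, 1 of 4 biological replicates of 3D follicles was labeled with Cy5 and a single pool of 4 monolayer cultures with Cy3. The fifth array carried the opposite labels: RNA pooled from the 3D cultures took Cy3 and the monolayer pool Cy5 (the swapped array). No cells carried a transgene or received a drug, and both conditions are the same line, so replicates are cultures and not animals.

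Epithelial cells hold their identity through transcription factors that keep junction and surface genes active. Elf3 and Ehf belong to the epithelium-specific branch of the ETS family, Grhl2 is a Grainyhead-like factor that activates junction genes such as Cdh1 and Cldn4 in the mouse, and Ovol1 is a zinc-finger repressor that opposes the mesenchymal program. Esrp1 is an RNA-binding protein that selects epithelial splice forms. Snai1, Snai2 and Zeb1 are zinc-finger repressors that bind E-boxes, as in the Cdh1 promoter, and Twist1 is a basic helix-loop-helix factor. Together these repressors drive the epithelial-mesenchymal transition, in which cells lose polarity and junctions.

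Among the 8 regulators measured the largest change was that of Elf3, so its proximal promoter is shown, from the RefSeq annotation of GRCr8. The window holds the 250 bases before the annotated start, on the minus strand at chr13:49247087-49247336, and the capitals mark the 1 match to CACCTG, the reverse complement of CAGGTG, the E-box letters bound by Snail and Zeb proteins.
Elf3: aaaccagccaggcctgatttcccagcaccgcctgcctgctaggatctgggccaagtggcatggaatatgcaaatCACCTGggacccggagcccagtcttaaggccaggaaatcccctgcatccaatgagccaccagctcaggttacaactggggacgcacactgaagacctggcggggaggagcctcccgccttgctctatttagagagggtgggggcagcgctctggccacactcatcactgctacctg
The match began at position -176, counted from the annotated start. Of 33469 promoter windows of the same length, 15.9% held CAGGTG on either strand. Of the 10 regulators, 5 were matched to a window. The windows of Snai1 and Zeb1 each held 1 such match, that of Twist1 held 0, and of 4 windows of Grhl1 1 held a match. No match to AACCGGTT, the Grainyhead motif (present in 0.146% of all windows), or to CCGTTA, the Ovol motif (2.39%), was found on either strand of the Elf3 window. The same held for GGAAG, a longer form of the Ets core (63.3%). The shorter GGAA, which the window does hold, was not counted. All matches given here are matches of letters in promoter windows and not binding sites.

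Values are log2 ratios of 3D over 2D after background correction and loess, and limma was used to test their mean on the 5 arrays against 0, at a false discovery rate (FDR) of 0.01. The 2D side was 1 pool, so the spread between monolayers is not in the test, and the swapped array holds RNA of the same cultures and is not an independent sample. Over all genes, Pearson's r of the ratios was 0.871 to 0.946 for pairs of replicate arrays and 0.734 to 0.765 for pairs with the swapped array, all of which share the 2D pool. Between 45.1% and 51.0% of probes per channel were well above background by the scanner software's flag, which compares a spot with its background. The line was checked against markers. The epithelial genes Cdh1, Epcam, Krt8 and Krt18 were well above background in both conditions on all 5 arrays, and so were Pax8, Foxe1 and Hhex of 8 thyroid follicular genes, while Tg, Tshr, Slc5a5 and Nkx2-1 were not above background on any array. Of 3 endothelial markers measured, only Cdh5 was above background, on 5 arrays in 3D and 3 in 2D, and it did not pass. Pecam1 and Kdr were not above background. Of 3 leukocyte markers measured, 0 were above background, and of 8 fibroblast markers 4 were (Col1a1, Col1a2, Col3a1 and Pdgfra). Pdgfra was the 1 fibroblast gene of the 8 that passed (0.55, limma adjusted p = 6.79e-06), Pdgfrb, Dcn, Lum and Thy1 were not above background, and the part of these genes in the results below was not tested.

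The epithelial transcription factors Elf3, Grhl2, Ehf and Ovol1 were all higher in 3D follicles, the splicing regulator Esrp1 did not pass the test, and the mesenchymal factors Snai1, Snai2 and Twist1 were not above background in either condition. Of the 8 regulators measured, 4 passed, against 25.9% of all genes. All 4 were higher, against 14.4% of all genes, and 0 were lower, against 11.5% of all genes (by limma, with 1 lower and 4 higher at an unadjusted p under 0.05). The regulators, and the lists of related genes below, were chosen with earlier results of these data known. Counts set beside these shares are therefore a description and not a test. The median log2 ratio of the 8 was 0.17, and that of all genes 0.0032. The 5 epithelial members had a median of 0.56, and all 5 were well above background in both conditions. Among all genes above background in both conditions, 25.0% were higher and 20.4% lower. In RNA from whole cultures, more cells of a type and more RNA per cell cannot be told apart.

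Elf3, the ETS factor, rose most among the regulators and stood at rank 33 of 15154 genes by log2 ratio. Its log2 ratio was 1.41 in replicate 1, 2.02 in replicate 2, 1.82 in replicate 3, 1.77 in replicate 4 and 2.08 on the swapped array. All 5 arrays thus lay far above 0, with replicate 1 the lowest, and the mean was 1.76 ± 0.25 (SD, n = 4). The fit gave a 3.53-fold rise (log2 ratio 1.82, standard error 0.09, limma adjusted p = 3.88e-07). The normalized log2 intensity was 13.004 to 13.512 in 3D and 11.28 to 11.59 in 2D over the 5 arrays, so the ranges did not overlap. With a term for the dye the log2 ratio was 1.92 (limma adjusted p = 8.07e-07). The dye effect itself was -0.16 and did not pass (limma adjusted p = 0.297). The 3 genes whose 5 ratios lay closest to those of Elf3 were Sh3kbp1, Ephx1 and Myzap, with Euclidean distances of 0.291, 0.429 and 0.450 over the 5 log2 ratios. Their log2 ratios were 1.85, 1.88 and 1.64.

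**Figure D1:**
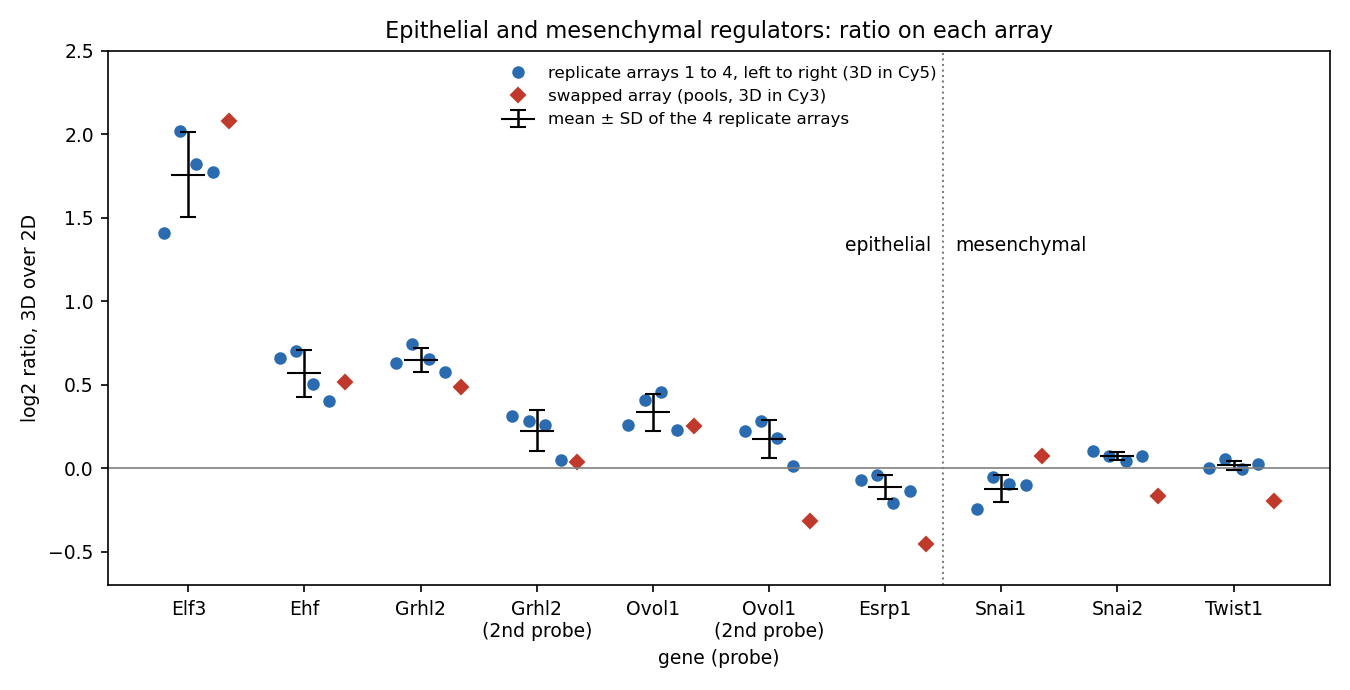
Log2 ratio of 3D over 2D (vertical axis) for each of the 10 probes of the 8 regulators, with a blue point for each of the 4 replicate arrays, black bars for their mean ± SD and a red diamond for the swapped array. Elf3 lies between 1.41 and 2.08 on every array, Ehf, Grhl2 and Ovol1 lie above 0 on every array by the probe used, and the 3 mesenchymal genes lie between -0.24 and 0.10.

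Ehf, the other ETS factor of this branch, rose by a smaller step. Its log2 ratio was 0.66, 0.70, 0.51 and 0.40 in replicates 1 to 4 and 0.51 on the swapped array. Every array was above 0, and the mean was 0.57 ± 0.14 (SD, n = 4). The fit gave a 1.47-fold rise (log2 ratio 0.56, standard error 0.05, limma adjusted p = 2.45e-05). The probe was dim, with normalized log2 intensities of 7.25 to 7.78 in 3D and 6.75 to 7.12 in 2D, and the offset of 50 added to both channels in background correction pulls the ratios of dim probes toward 0. With an offset of 0 the log2 ratio was 0.91, and with the scanner software's processed signals 1.10.

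Grhl2 had 2 probes. On the brighter the log2 ratio was 0.63, 0.75, 0.65 and 0.57 in replicates 1 to 4 and 0.48 on the swapped array. This was a close grouping, with a mean of 0.65 ± 0.07 (SD, n = 4), and the fit gave a 1.53-fold rise (log2 ratio 0.62, standard error 0.05, limma adjusted p = 6.70e-06). The other probe was above background in 3D on 5 arrays and in 2D on 2. Its log2 ratios were 0.31, 0.29, 0.26 and 0.05 in replicates 1 to 4 and 0.04 on the swapped array, and it did not pass over all probes (log2 ratio 0.19, limma adjusted p = 0.0258). Over all 30367 probes 10.6% were higher. The mean of both probes gave 0.40 for the gene (limma adjusted p = 0.000128).

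Ovol1 also had 2 probes, and only the brighter was above background in both conditions. Its log2 ratio was 0.26, 0.41, 0.45 and 0.23 in replicates 1 to 4 and 0.25 on the swapped array. All 5 values were above 0, with a mean of 0.34 ± 0.11 (SD, n = 4). The fit gave a 1.25-fold rise (log2 ratio 0.32, standard error 0.05, limma adjusted p = 0.000557). This probe too was dim, and the log2 ratio was 0.53 with an offset of 0 and 0.61 with the processed signals. The dimmer probe was above background in 3D on 1 array and in 2D on 0. It measured 0.22, 0.28, 0.18 and 0.01 in replicates 1 to 4 and -0.32 on the swapped array, and did not pass over all probes (log2 ratio 0.08, limma adjusted p = 0.556). Averaged over both probes, Ovol1 reached 0.20 and no longer passed (limma adjusted p = 0.0248).

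Esrp1 was well above background in both conditions on all 5 arrays, and its single probe, with 1 spot per array, gave values below 0. The log2 ratio was -0.07, -0.04, -0.20 and -0.13 in replicates 1 to 4 and -0.45 on the swapped array. The sign was the same on all 5 arrays, but the swapped array lay well below the others, whose mean was -0.11 ± 0.07 (SD, n = 4). The fit gave -0.18 with a 95% interval of -0.32 to -0.04, and Esrp1 did not pass (limma adjusted p = 0.0480). With a term for the dye it was -0.28 and passed (limma adjusted p = 0.00113), as it did in the authors' value table (-0.22, limma adjusted p = 0.00920). Without the swapped array it was -0.11 (limma adjusted p = 0.0534).

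**Figure D2:**
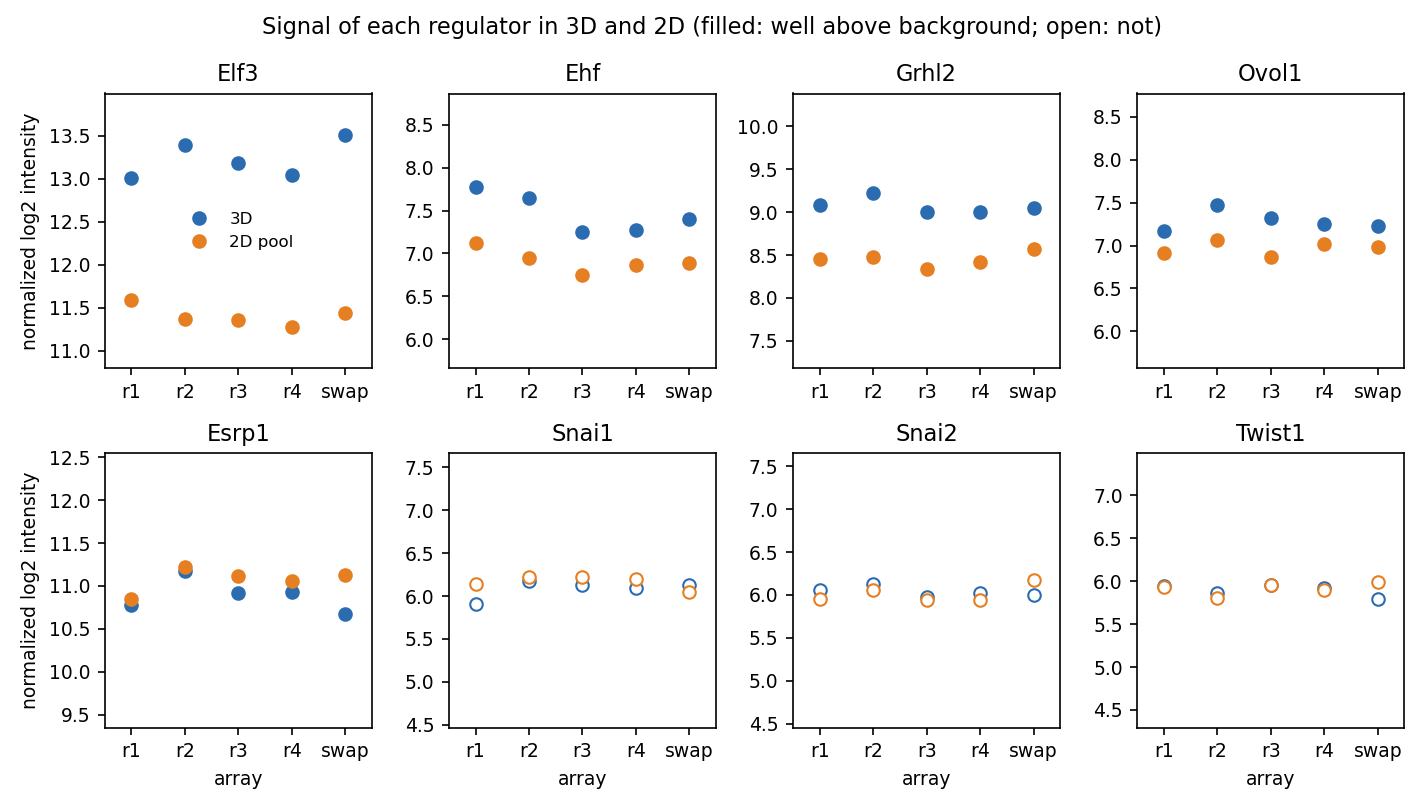
Normalized log2 intensity (vertical axis) of each regulator in the 3D RNA (blue) and the 2D pool (orange) on the 4 replicate arrays (r1 to r4) and the swapped array, with filled points where the probe was well above background and open points where it was not. Intensities of different probes are not comparable with each other. The 3D points lie above the 2D points on every array for Elf3, Ehf, Grhl2 and Ovol1, below them for Esrp1, and all points of Snai1, Snai2 and Twist1 are open.

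The mesenchymal repressors gave signals near those of negative control spots, with Snai1 above most of these on most arrays. Snai1, Snai2 and Twist1 were well above background on 0 of 5 arrays in 3D and on 0 of 5 in 2D, so the ratios below were formed from signals at background and a change could have been missed. Among all genes, 40.5% were above background in neither condition, and 0.0489% of those passed the test. For Snai1 the signal minus local background was 4 to 18 in 3D and 11 to 19 in 2D, where the 95th percentile of 308 negative control spots was 12.8 to 16.3 in the 3D channel and 14 to 16 in the 2D channel. It exceeded that percentile on 4 of 5 arrays in each condition, so its probe lay at the edge of detection. Snai2 measured 7.25 to 14 in 3D and exceeded the percentile on 0 arrays there and on 1 in 2D. Twist1 measured -0.75 to 6.5 in 3D and 5 to 10.5 in 2D and exceeded it on none. The log2 ratio of Snai1 was -0.24, -0.05, -0.09 and -0.10 in replicates 1 to 4 and 0.07 on the swapped array (limma adjusted p = 0.265). That of Snai2 was 0.04 to 0.10 in the replicates and -0.16 on the swapped array (limma adjusted p = 0.740), and that of Twist1 -0.01 to 0.06 in the replicates and -0.19 on the swapped array (limma adjusted p = 0.770). None of the 3 passed.

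Detection was then read for relatives of these regulators. With 15 further epithelial regulators, 17 of 21 genes on the epithelial side were measured and 14 of the 17 (82.4%) were above background in both conditions. With 15 further mesenchymal transcription factors, 14 of 19 genes on that side were measured and 4 of the 14 (28.6%) were above background in both (Snai3, Tcf3 and Tcf12 among them). Over all genes the share was 55.8%. Snai3, the third Snail gene, was above background on 1 array in each condition, while Zeb2, Twist2, Prrx1, Foxc2, Gsc, Six2 and Tcf4 were on none. Elf5 and Foxa2 were among the 3 epithelial regulators that were not above background.

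Among 12 further epithelial regulators measured, 1 rose and 0 fell (by limma, with 3 higher and 1 lower at an unadjusted p under 0.05). Over all genes 14.4% were higher and 11.5% lower. Without the swapped array 3 of the 12 were higher and 1 lower, and 1 was lower in 6 of 13 alternatives. Of the 12, 9 were above background in both conditions, and among all such genes 25.0% were higher and 20.4% lower. The median log2 ratio of the 12 was 0.04. Ovol2, the nearest relative of Ovol1, was below 0 on all 5 arrays and just missed the threshold (-0.21, limma adjusted p = 0.0104). Esrp2, the partner of Esrp1, was at 0.03 (limma adjusted p = 0.790), and the swapped array gave -0.28.

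Of 11 further mesenchymal transcription factors measured, 0 passed in either direction (by limma, with 1 higher and 0 lower at an unadjusted p under 0.05), and their median was -0.02. Over all genes 14.4% were higher and 11.5% lower. Of the 11, 7 were above background in neither condition, where 0.0489% of all genes passed, so a change in these could have been missed. Tcf12, an E protein that pairs with other helix-loop-helix factors, was at 0.51, 0.72, 0.48 and 0.49 in replicates 1 to 4 but at -0.37 on the swapped array (0.36, limma adjusted p = 0.0611). Without the swapped array it passed, at 0.55 (limma adjusted p = 1.86e-05), the 1 of 13 alternatives in which it did. With a term for the dye the log2 ratio of Tcf12 was only 0.087. Snai3 was at -0.10 (limma adjusted p = 0.197).

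Of 14 genes measured whose proteins partner with or control Snail, Zeb and Twist factors, 6 were higher, against 14.4% of all genes, and 2 lower, against 11.5%, with a median of 0.14. Of the 14, 10 were above background in both conditions, and among all such genes 25.0% were higher and 20.4% lower. With an offset of 0 or with the processed signals 3 were higher and 0 lower, and the number lower was also 0 without replicate 2, 3 or 4. Id2 and Id1 encode helix-loop-helix proteins without a DNA-binding domain, which hold E proteins such as Tcf3 and Tcf12 away from DNA. Id2 had log2 ratios of 2.24, 2.46, 2.30 and 2.34 in replicates 1 to 4 and 1.88 on the swapped array, all high (2.24, limma adjusted p = 7.22e-08). Id1 was at 1.07, 1.34, 1.70 and 1.69 in replicates 1 to 4 and at 1.55 on the swapped array, lowest in replicate 1 (1.47, limma adjusted p = 1.49e-06). Id3 and Id4 were not above background. Ctbp2, a corepressor that Zeb proteins recruit, was higher, with a log2 ratio of 0.59 (limma adjusted p = 0.000270). The swapped array gave 0.19 and the replicates 0.69 ± 0.07 (SD, n = 4), and its other probe gave 0.31. The Hippo pathway kinase gene Lats2 and the kinase gene Pak1 were lower, with log2 ratios of -0.30 and -0.21 (limma adjusted p = 0.00447 and 0.00309). Neither passed without replicate 2, 3 or 4 (limma adjusted p from 0.0103 to 0.0244 for Lats2 and from 0.0136 to 0.0205 for Pak1), with an offset of 0 or with the processed signals, and under median centring the ratios were 0.24 and 0.29. The other probe of Lats2 gave -0.06 and did not pass over all probes (limma adjusted p = 0.413).

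Epithelial adhesion and surface genes moved in both directions. Of 23 measured, all above background in both conditions, 12 were higher, 3 were lower and 8 did not pass, with a median of 0.28. Among all genes above background in both conditions 25.0% were higher and 20.4% lower. Krt19, a keratin of simple epithelia, was at 0.79 in replicate 1 and at 1.32 to 1.46 in replicates 2 to 4, with 1.18 on the swapped array (1.23, limma adjusted p = 4.21e-06). Cdh3, which encodes P-cadherin, was at 1.19 to 1.39 in the replicates but at 0.25 on the swapped array (1.05, limma adjusted p = 0.000263). Mal2, a protein of apical transport, was higher, with a log2 ratio of 0.90 (limma adjusted p = 6.12e-07). Its mean was 0.92 ± 0.08 (SD, n = 4). The tight junction genes Cldn3 and Cldn4 fell, with log2 ratios of -1.34 and -0.48 (limma adjusted p = 2.44e-07 and 5.87e-05). Cdh1, which encodes E-cadherin, was at 0.13, -0.12, -0.27 and -0.16 in replicates 1 to 4 and at 0.06 on the swapped array (-0.07, limma adjusted p = 0.435). Its values fell on both sides of 0 and it did not pass.

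**Figure D3:**
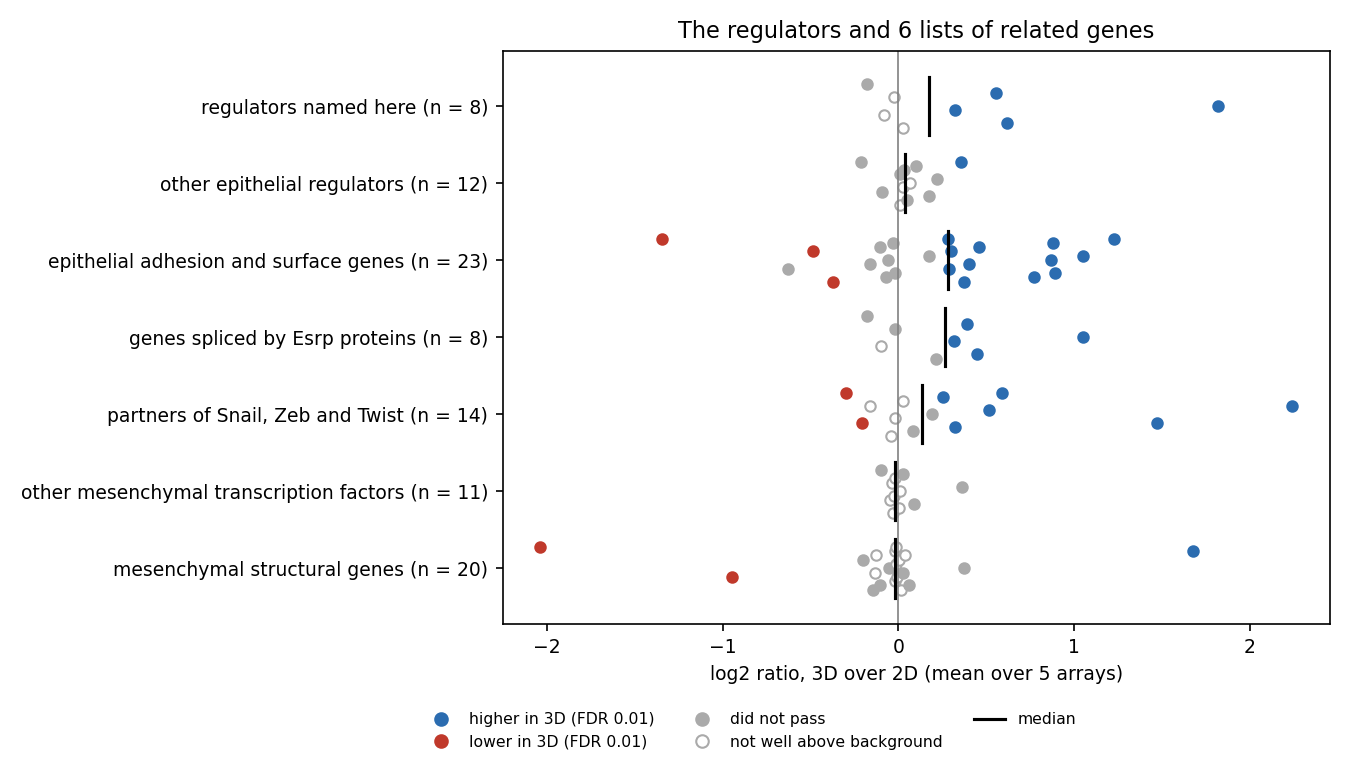
Log2 ratio of 3D over 2D from the fit over 5 arrays (horizontal axis) for each measured gene of the regulators and of 6 related lists, in blue where higher and red where lower in 3D at an FDR of 0.01 and gray otherwise, with open points for genes not well above background and a black line at the median. The regulators that rose lie to the right of 0, and the adhesion genes spread to both sides (12 higher, 3 lower). The further mesenchymal factors lie around 0 (median -0.02), with 7 of the 11 well above background in neither condition.

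Of 20 mesenchymal structural genes measured, 1 was higher, 2 were lower and 10 were above background in neither condition, with a median of -0.02 (by limma, with 2 higher and 6 lower at an unadjusted p under 0.05). Over all genes 14.4% were higher and 11.5% lower. Without the swapped array, and with the processed signals, 4 were lower. Fn1, which encodes fibronectin, and Mmp2, a gelatinase, were those that fell, with log2 ratios of -2.04 and -0.95 (limma adjusted p = 4.49e-06 and 3.15e-06). Both were smallest in size in replicate 1, at -1.28 and -0.68. Their other probes gave -0.80 and -0.32, and that of Mmp2 was above background in 3D on 2 arrays. S100a4, a calcium-binding protein also known as fibroblast-specific protein, was higher at 1.68 (limma adjusted p = 2.42e-07). Its replicates averaged 1.73 ± 0.21 (SD, n = 4), and the swapped array gave 1.47. Vim, which encodes vimentin, was above background on all arrays and did not pass, with 0.19 in replicate 1 and -0.55, -0.22 and -0.15 in replicates 2 to 4 (-0.20, limma adjusted p = 0.112). The N-cadherin gene Cdh2 was above background on no array.

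Genes whose transcripts Esrp proteins splice could be read only as whole genes, since the exons the probes cover are not given in the sources used here. Of 8 measured, 4 were higher and 0 lower (by limma, with 5 higher and 1 lower at an unadjusted p under 0.05), and the median was 0.27. Over all genes 14.4% were higher and 11.5% lower, and with an offset of 0 the 4 became 2. Without the swapped array 5 were higher and 1 lower. Of the 8, 7 were above background in both conditions, and among all such genes 25.0% were higher and 20.4% lower. Fgfr2, a growth factor receptor with an epithelial splice form, had a log2 ratio of 1.05 (limma adjusted p = 6.20e-06) on its brightest probe, and 0.67, 0.34 and 0.33 on the other probes, so its size depended on the probe. The probe at 0.33 did not pass over all probes (limma adjusted p = 0.0135). Ctnnd1, which encodes p120 catenin, was at 0.45 on both of its probes (limma adjusted p = 0.000765 on the probe used). On the probe used it varied between replicate arrays, from 0.13 in replicate 3 to 0.66 in replicate 1. Magi1, a junction scaffold, was at 0.39 (limma adjusted p = 0.00106), with 0.69 in replicate 1 and 0.23 to 0.32 in the other replicates. Cd44, a surface receptor, was at -0.30, -0.31, -0.29 and -0.17 in replicates 1 to 4 but at 0.17 on the swapped array. The fit gave -0.18 for Cd44, which did not pass (limma adjusted p = 0.0842).

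The calls for Elf3, Ehf, Grhl2 and Ovol1 were recomputed under 13 alternatives, which included other processing, a dye term and leaving out each array. The mean of all probes could not change the ratio of Elf3 or Ehf, each with a single probe. The filter on dim genes changed no ratio, only the adjustment. Elf3, Ehf and Grhl2 passed in 12 of these and Ovol1 in 11. The exception for all of them was median centring in place of loess, where 7 of all genes were higher and 0 lower at the threshold. Their values there were still above 0, at 2.32 for Elf3, 0.78 for Ehf, 1.08 for Grhl2 and 0.53 for Ovol1.

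**Figure D4:**
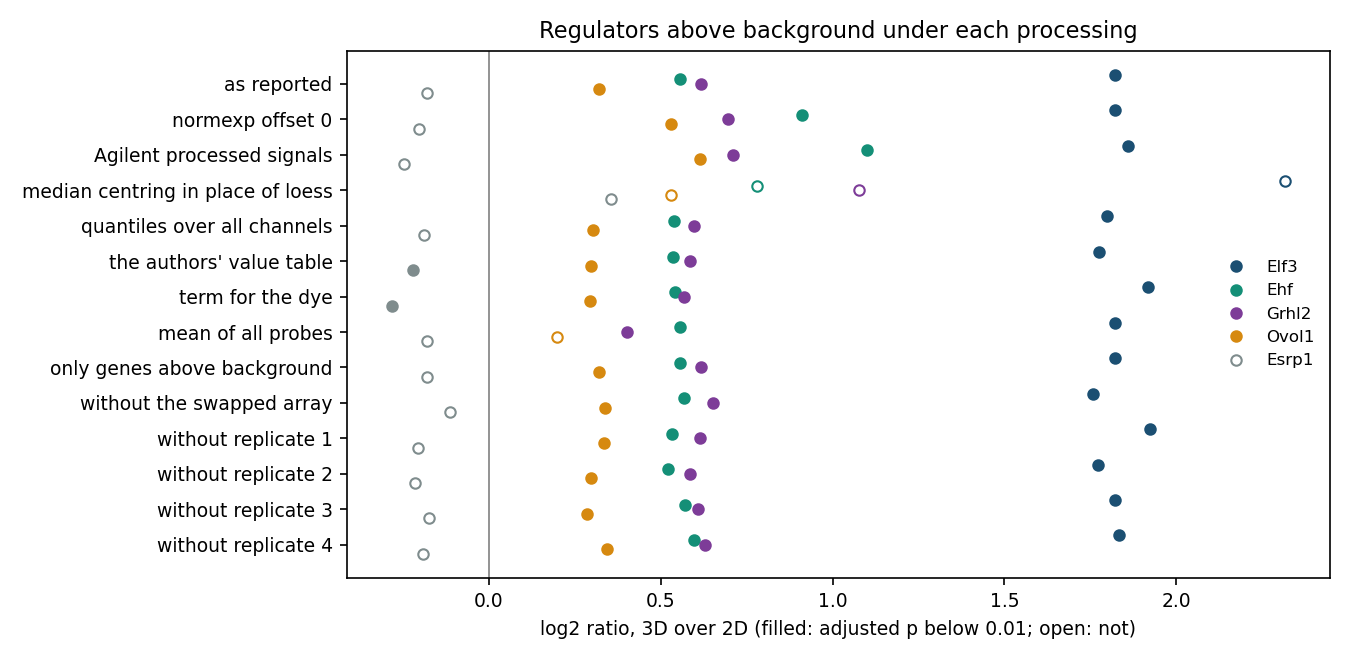
Log2 ratio of 3D over 2D (horizontal axis) of the 5 regulators above background, as reported and under 13 alternatives, with filled points where the limma adjusted p was below 0.01 and open points where it was not. Elf3, Ehf, Grhl2 and Ovol1 stay to the right of 0 under each of them, and Esrp1 stays to the left under all but median centring, where it is at 0.35.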

How the data were processed

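Total RNA of FRT cells, isolated on day 5, was hybridized to 5 Agilent two-color rat arrays of the same slide and scan. The authors' deposited spot intensities give the median over the pixels of each spot and of its surroundings, read with Agilent Feature Extraction 10.7.3.1 per the file headers, and not normalized. The deposited processed intensities had been background-subtracted and dye-normalized by that software, and the deposited log10 ratios are Cy5 over Cy3 of them. The value table that the authors deposited holds log2 ratios made with limma by normexp, loess and quantiles between arrays, and it runs 3D over 2D on all 5 arrays. Flags for spots well above background, saturated or outlying came with the files per the file headers.

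Here, background was removed from the median signals by normexp (offset 50), each array's ratios were normalized by loess, in which control spots had weight 0, and Aquantile was applied between arrays, in R 4.3.3 with limma 3.58.1. Outlier spots (1.12% to 1.60% per array) were left out, 0 spots were saturated, and spots of a probe were averaged. Probes (30367) were paired with symbols of the RefSeq table of GRCr8 by accession without version; the arrays were designed on rn4. This gave 17998 probes of 15154 genes, each read from its brightest probe. A gene counted as above background in a condition if it was flagged so on at least 1 array. A linear model with 1 coefficient was fitted over the 5 arrays, the swapped one with its sign turned, with Benjamini-Hochberg adjustment over all genes. The prior had 5.12 degrees of freedom. The fit was tested on simulated ratios. The number of arrays limits the precision.

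The regulators and the related lists were chosen with earlier results of these data known. The lists were written from general knowledge, with 6 lists of related genes and marker lists holding 120 genes, of which 105 were measured. All regulators are named, and from each list at most 3 genes that rose and 3 that fell, by size, among those past the threshold with 1 sign on the 5 arrays and a signal above background, or, where none passed, 2 with the largest change. Ovol2, Esrp2, Cdh1, Vim, Cd44 and the genes named only for their detection lie outside that rule and were chosen after their values were seen. Alternatives were an offset of 0, processed signals, median centring, quantiles over all channels, the authors' table, a dye term, the mean of all probes, a filter on dim genes, and leaving out each array. Some genes of the lists entered every count and are not reported here by name.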

Additional observations from a re-analysis of the deposited data

Results flagged for a closer look

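In 3 of 32 sets of 4 replicate ratios tested, 1 replicate lay far from the other 3 by Dixon's test, which flags about 1 set in 20 by chance. None of the 10 probes of the regulators was among them. Tcf12 had a gap of 0.876 of its range, with replicate 2 at 0.72 and the others at 0.48 to 0.51. Cdh3 had a gap of 0.867, with replicate 1 at 1.39 and the others at 1.19 to 1.22. Cldn4 had a gap of 0.941, with replicate 1 at -0.27 and the others at -0.55 to -0.54.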

How the results depend on the processing

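The number of genes past the threshold was 2177 higher and 1741 lower. It was 1178 and 1044 with a normexp offset of 0, and 7 and 0 with median centring. Leaving out 1 replicate gave 1643 to 1820 higher and 1344 to 1488 lower. Of all genes that passed, 55.6% were higher, and 49.2% in the authors' value table. The number of regulators that rose was 4, and 0 with median centring. The number that fell was 0, and 1 (Esrp1) in the authors' table and with a dye term. Under median centring the log2 ratios of Elf3, Ehf, Grhl2 and Ovol1 were 2.32, 0.78, 1.08 and 0.53 and did not pass, that of Esrp1 turned to 0.35 and that of Snai2 to -0.18. Ovol1 reached 0.20 as the mean of its probes. Esrp1 passed at -0.22 in the authors' table and at -0.28 with a dye term. Snai2 turned to -0.045 with a dye term and Twist1 to 0.020 without the swapped array. Cldn4, Lats2 and Pak1 turned to 0.036, 0.24 and 0.29 under median centring. The cause of these changes was not tested. Leaving out 1 replicate gave 1.77 to 1.92 for Elf3, 0.52 to 0.60 for Ehf, 0.59 to 0.63 for Grhl2, 0.29 to 0.34 for Ovol1 and -0.22 to -0.17 for Esrp1, with no change of call. Epcam passed in 4 of 13 alternatives, and Lats2 and Pak1 in 7 each. With only genes above background, Snai1, Snai2 and Twist1 had no value. No paired analysis was possible because the 2D cultures were hybridized as 1 pool.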
